A study of Homo sapiens with 12 samples.

Results

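The peaks described here are those of 3 histone marks around 5 genes of the aryl hydrocarbon receptor (AHR) gene battery in HepG2 cells. The genes are AHR itself and 4 genes known to be induced by it, CYP1A1, CYP1A2, CYP1B1 and TIPARP. Peaks were taken by position alone, within 30 kb of the bodies of CYP1A1 and CYP1A2 and within 30 kb of the starts of the other genes. The windows of the neighbouring CYP1A1 and CYP1A2 were joined, which left 4 windows. They held 87 of the 273551 deposited peaks on chromosomes 1 to 22 and X, namely 21 H3K27ac, 58 H3K4me1 and 8 H3K4me3 peaks. All positions of peaks and genes are given in GRCh37 (hg19), the build named in the submitters' processing notes, and are counted from 1.

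HepG2 is an established human hepatocellular carcinoma line, and the labels give its treatment as none, so no ligand of the receptor was added on purpose. Chromatin immunoprecipitation and sequencing (ChIP-seq) was done with antibodies to H3K27ac, H3K4me1 and H3K4me3, with 3 libraries for each mark and 3 control libraries. Titles call the control libraries input, yet the antibody given for them is an anti-mouse immunoglobulin. The deposited values are 1 peak list per mark, pooled over replicates by its name, so there is no spread between replicates, no difference below has a replicate check and the depth of each library is unknown. H3K27ac is known from active promoters and enhancers, H3K4me3 mainly from promoters, and H3K4me1 mainly from enhancers and the flanks of promoters.

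AHR is a transcription factor of the basic helix-loop-helix PAS family that is held in the cytoplasm by chaperones until it binds a ligand such as a dioxin or a polycyclic aromatic hydrocarbon. It then enters the nucleus, pairs with ARNT and binds xenobiotic response elements, whose core is GCGTG. CYP1A1, CYP1A2 and CYP1B1 encode cytochrome P450 enzymes that oxidise such compounds, and TIPARP encodes a mono-ADP-ribosyltransferase that limits the activity of the receptor. CYP1A1 and CYP1A2 lie head to head, with their starts 23.3 kb apart, and are transcribed away from each other.

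The sequences before the starts are shown because the marks at the starts differed between these genes. Each is the 250 bases before a start listed by RefSeq (GRCh38.p14), for TIPARP the first of 3 listed starts, 5′ to 3′ in the direction of transcription, on chromosome 15 minus strand for CYP1A1, chromosome 15 plus strand for CYP1A2, chromosome 7 plus strand for AHR and chromosome 3 plus strand for TIPARP. Sequences were matched for 4 of the 5 genes. Capitals mark GCGTG, or its reverse complement CACGC, and TATAAA, the letters of a TATA box, or its reverse complement TTTATA. These starts were not placed on the build of the peaks base by base.
CYP1A1: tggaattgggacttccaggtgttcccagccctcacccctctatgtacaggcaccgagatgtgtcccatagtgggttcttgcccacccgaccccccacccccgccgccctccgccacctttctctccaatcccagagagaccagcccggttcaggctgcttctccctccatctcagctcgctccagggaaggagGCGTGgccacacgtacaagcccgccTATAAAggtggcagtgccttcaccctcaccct
CYP1A2: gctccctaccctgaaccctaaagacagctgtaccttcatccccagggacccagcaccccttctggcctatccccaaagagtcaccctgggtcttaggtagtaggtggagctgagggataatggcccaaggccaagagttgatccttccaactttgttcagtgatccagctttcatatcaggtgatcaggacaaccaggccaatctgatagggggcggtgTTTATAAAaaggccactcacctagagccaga
AHR: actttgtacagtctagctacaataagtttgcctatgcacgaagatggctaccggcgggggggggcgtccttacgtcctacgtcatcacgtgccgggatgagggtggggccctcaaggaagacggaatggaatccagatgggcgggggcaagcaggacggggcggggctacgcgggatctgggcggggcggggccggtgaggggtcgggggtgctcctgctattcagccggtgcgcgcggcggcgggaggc
TIPARP: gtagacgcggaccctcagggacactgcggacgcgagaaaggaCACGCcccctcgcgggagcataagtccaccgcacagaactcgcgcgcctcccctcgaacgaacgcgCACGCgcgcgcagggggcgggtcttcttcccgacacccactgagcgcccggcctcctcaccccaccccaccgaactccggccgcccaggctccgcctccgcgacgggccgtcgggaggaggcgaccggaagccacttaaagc
The CYP1A1 sequence held 1 GCGTG, from 57 to 53 bases before the start, and 1 TATAAA, from 32 to 27 bases before it. CYP1A2 held no GCGTG in this stretch, and 2 matches of TATAAA that overlap each other, 1 on each strand, between 31 and 24 bases before the start. The AHR sequence held neither motif. The sequence before the first TIPARP start held 2 GCGTG, both on the minus strand, from 208 to 204 and from 142 to 138 bases before it. The sequences before the other TIPARP starts, not shown, held 0 GCGTG and 0 TATAAA. Of all 35116 promoter sequences in the RefSeq table, 32.2% held at least 1 GCGTG and 10.7% at least 1 TATAAA on either strand. The longer form TNGCGTG, found in 4.52% of them, had 0 matches in the 4 sequences shown and before the other TIPARP starts. CpG pairs numbered 1 for CYP1A2, 10 for CYP1A1, 24 for AHR and 35, 34 and 1 for the 3 TIPARP starts in their order along the gene, against a median of 11 (interquartile range 3 to 23) over the table. A match describes letters only, and none of these motifs was tested for binding. Only the 250 bases before each start were searched, so a missing match says nothing on sequence farther away.

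The marks separated the 5 genes into 3 kinds of start. AHR, TIPARP and CYP1A1 had both H3K4me3 and H3K27ac at or within 555 bp of the start. CYP1B1 had H3K4me3 and H3K4me1 beside its start and no H3K27ac within 30 kb. CYP1A2 had neither H3K4me3 nor H3K27ac within 11.1 kb of its start, only H3K4me1. The signal value that the authors' peak caller gave the H3K4me3 peak nearest to the start was 59.3 at AHR, 50.1 at TIPARP, 18.1 at CYP1A1 and 6.34 at CYP1B1. For H3K27ac the order of the nearest peaks was AHR with 24.9, CYP1A1 with 20.3 and TIPARP with 19.3. What the signal value is relative to is not stated, so it is compared only between peaks of the same list.

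**Figure D1:**
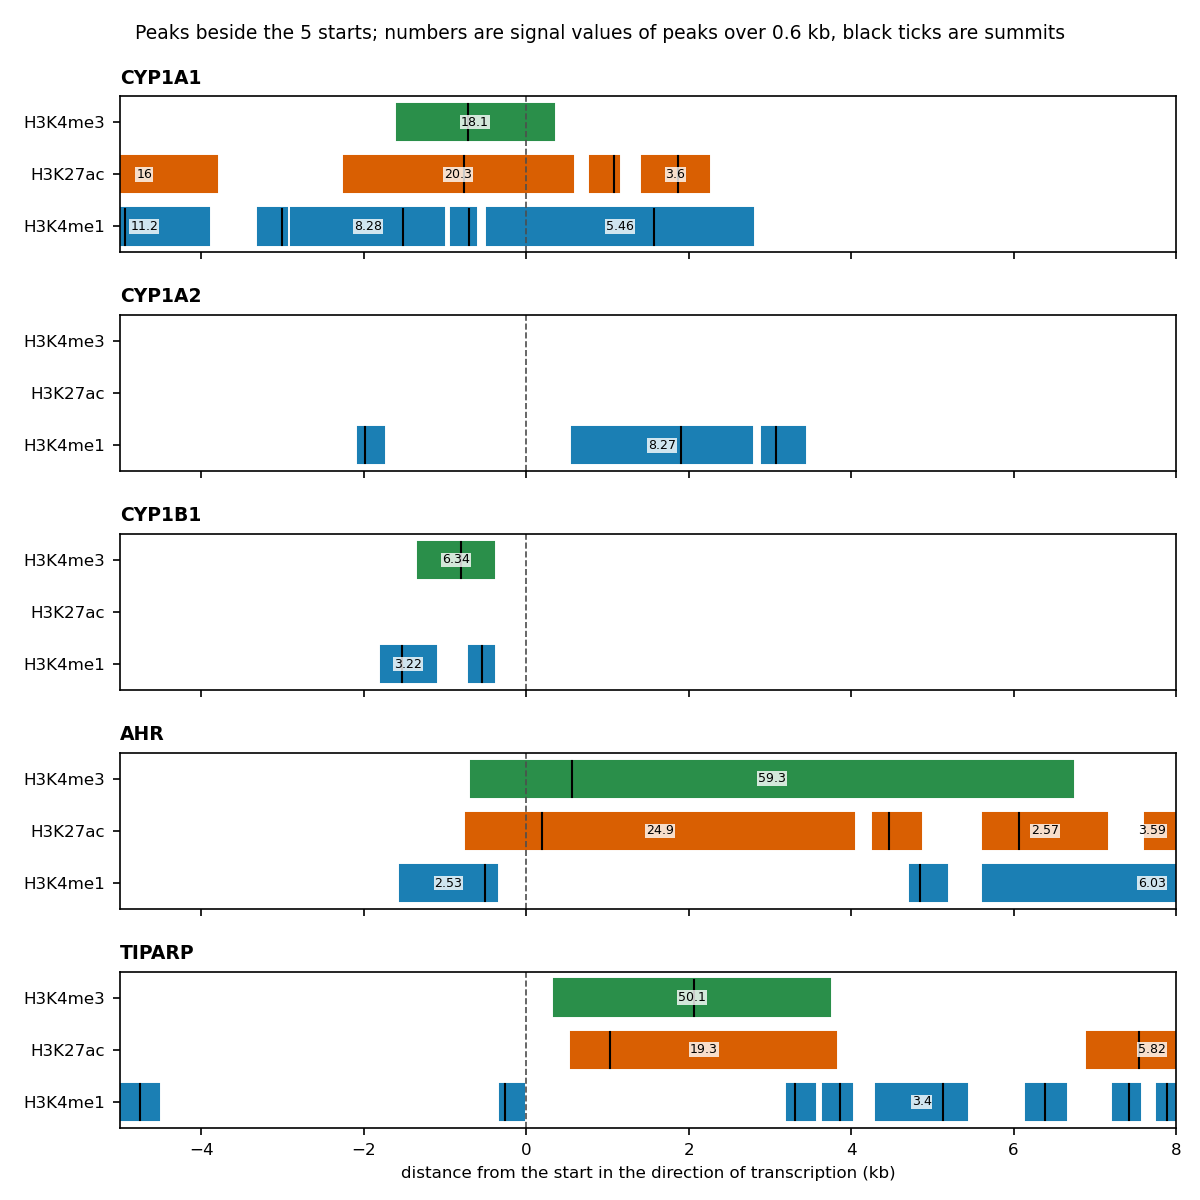
Peaks of the 3 marks (rows) from 5 kb before to 8 kb after each of the 5 starts, as distance in kb in the direction of transcription. Bars are peaks, black ticks their summits and numbers the signal values. H3K4me3 and H3K27ac peaks lie at AHR, TIPARP and CYP1A1, H3K4me3 without H3K27ac at CYP1B1, and H3K4me1 alone at CYP1A2.

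AHR, the receptor, carried the strongest and widest H3K4me3 peak of all 8 in the windows. It lay at chr7:17337603-17345008, held the start at 17338276 and was 7406 bp wide, from 673 bp before to 6732 bp after the start. Its signal value of 59.3 exceeded that of 93.6% of all H3K4me3 peaks, and 99.6% of them were narrower. Its width was also set beside the 2444 peaks of like strength, meaning those in the same decile of the list by signal value, here 54.9 to 108.4. These had a median width of 3271 bp (interquartile range 2633 to 4104), and 97.8% of them were narrower than the AHR peak. Most of its length lay downstream of the start.

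H3K27ac at AHR followed the same stretch. The main peak, chr7:17337535-17342315, was 4781 bp wide with a signal value of 24.9 and its summit 193 bp after the start, and 91.2% of the H3K27ac list had a lower signal value. Weaker peaks of 2.63 and 2.57 covered parts of the downstream end of the H3K4me3 peak, so that 86.6% of its bases were acetylated. Among H3K4me3 peaks of the same decile, the strongest overlapping H3K27ac peak had a median signal value of 30.8 (22.0 to 42.2), so acetylation at AHR lay inside the usual range for its H3K4me3. H3K4me1 was missing from the centre: no H3K4me1 peak lay in the 5.08 kb around the H3K4me3 summit. This is usual at such strength, since 2.54% of the summits in the same decile lay in an H3K4me1 peak. A wide H3K4me1 peak of 4947 bp with a signal value of 6.03 began near the downstream end of the H3K4me3 peak, at chr7:17343906-17348852. On the upstream side a weaker H3K4me1 peak of 1206 bp, chr7:17336717-17337922, had a signal value of 2.53 and ended 354 bp before the start.

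Away from the start, the AHR window held further acetylated peaks. One of 1797 bp at chr7:17315099-17316895, with its summit 22.0 kb upstream, had a signal value of 5.27, and a 398-bp H3K4me1 peak of 2.5 lay inside it. Others had their summits 8.90, 20.6 and 22.1 kb after the start, with signal values of 3.59, 2.47 and 2.48. All 4 overlapped H3K4me1 without H3K4me3, a combination called enhancer-like here by its marks alone. The strongest of them exceeded 81.1% of the 39769 enhancer-like H3K27ac peaks of the whole list. One more acetylated peak, 27.1 kb after the start with a signal value of 2.02, overlapped neither methylation.

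CYP1A1, the classical target gene, had an H3K4me3 peak of middling strength. It lay at chr15:75017539-75019471, 1933 bp wide, held the start at 75017877 and had a signal value of 18.1, higher than 54.3% of the list. The H3K27ac peak over it, chr15:75017305-75020124, was 2820 bp wide with a signal value of 20.3, higher than 88.1% of that list, and it covered 100% of the H3K4me3 bases. Both summits lay upstream of the start, 710 bp for H3K4me3 and 770 bp for H3K27ac. Among the 2445 H3K4me3 peaks of the same decile (signal values 13.3 to 26.0), the strongest overlapping H3K27ac peak had a median of 8.81 (3.86 to 18.5), and that of CYP1A1 exceeded 78.2% of them.

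H3K4me1 ran through the CYP1A1 start. At AHR and TIPARP no H3K4me1 peak held the start, but weak ones ended 354 bp before it at AHR and 27 bp before it at TIPARP. At CYP1A1 the H3K4me1 peak chr15:75015088-75018359, 3272 bp wide with a signal value of 5.46, held the start and the 2789 bp after it. A narrow peak of 299 bp with a signal value of 2.08 held the H3K4me3 summit, and a stronger one of 8.28 lay just upstream at chr15:75018890-75020766. Together these covered 88.0% of the H3K4me3 bases, where H3K4me3 peaks of the same decile had a median of 51.9% (30.0 to 69.8) and 91.0% of them were covered less. The summit lay in an H3K4me1 peak in 29.5% of that decile, and in 40.6% of all H3K4me3 peaks. In the stronger deciles of AHR and TIPARP this share was 2.54% and 2.41%. The narrow peak at the summit was among the weakest of its list, since 1.85% of H3K4me1 peaks had a lower signal value. Its −log10 q-value was 3.47, so the stricter list with values of 5 or more would not hold it. The H3K4me3 summit of CYP1A1 would then lie in no H3K4me1 peak, and the covered share of 88.0% would be lower. The shares of the decile under that cut were not computed.

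The stretch between CYP1A1 and CYP1A2 held the strongest enhancer-like peak of all 4 windows. It lay at chr15:75021682-75024841, was 3160 bp wide, had its summit 5.86 kb upstream of the CYP1A1 start and had an H3K27ac signal value of 16.0. Of all enhancer-like H3K27ac peaks, 97.1% had a lower signal value, and their median was 2.62. The H3K4me1 peak under it, chr15:75021776-75024795, had a signal value of 11.2, the highest of the 58 in the windows and above 99.5% of the H3K4me1 list. By their midpoints, 3 H3K27ac, 10 H3K4me1 and 1 H3K4me3 peaks lay between the starts of both genes. The acetylated ones were gathered on the CYP1A1 side: the H3K27ac peak farthest towards CYP1A2, a 338-bp peak of 2.38, had its summit 7.22 kb from the CYP1A1 start.

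CYP1A2, a P450 of the adult liver that oxidises caffeine, was marked by H3K4me1 only. Its start at 75041184 lay in no peak, and positions 500 bp to either side were also free of all 3 marks. The nearest H3K4me1 peak, chr15:75041750-75043968, began 566 bp after the start, inside the gene, and was 2219 bp wide. Its signal value of 8.27 was high for H3K4me1, above 96.7% of the list, and above 99.2% of the 112508 H3K4me1 peaks that overlap neither other mark. The nearest H3K27ac peak lay 11.1 kb downstream, beyond the gene, with a signal value of 2.59, and the nearest H3K4me3 peak was that of CYP1A1, 21.7 kb upstream. No H3K27ac or H3K4me3 peak had its midpoint inside CYP1A2.

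The strongest H3K4me3 peaks of the joined CYP1A window lay at its outer edges and not at either P450 gene. They were chr15:74987010-74989244, with a signal value of 48.2, and chr15:75073713-75076566, with 49.6, both acetylated. In RefSeq's gene order the next coding genes are EDC3, which encodes an mRNA decapping factor, on the CYP1A1 side and CSK, a tyrosine kinase, on the CYP1A2 side. A gene annotation of the build of the peaks was not used here, so these peaks were not assigned to either gene. The side beyond CYP1A2 held the most H3K4me1 peaks of this window, 14, including the widest of all 4 windows, 5728 bp at chr15:75068567-75074294 with a signal value of 10.4. It also held an H3K4me3 peak of 3.83 without acetylation at chr15:75063588-75064216.

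CYP1B1, a P450 known mainly from tissues outside the liver, had methylation beside its start and no acetylation. The only H3K4me3 peak of its window, chr2:38303719-38304654, was 936 bp wide and lay wholly upstream, beginning 396 bp before the start at 38303323. This peak is named here by its distance alone, since no annotation of the build was used to assign it to a gene. The signal value was 6.34, higher than 38.5% of the list. Its −log10 q-value of 97.7 was far above the lowest in the list, 0.196. It was far below those of the H3K4me3 peaks nearest to the starts of AHR (5048), TIPARP (3508) and CYP1A1 (1054). H3K4me1 peaks of 2.32 and 3.22 lay over the edges of the CYP1B1 H3K4me3 peak. They lay at chr2:38303715-38304022 and chr2:38304436-38305115 and left 413 bp free around its summit. A further H3K4me1 peak lay 18.1 kb after the start with a signal value of 3.15. These 4 peaks were all that the CYP1B1 window held.

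No H3K27ac peak was listed within 30 kb of CYP1B1. The nearest lay 70.4 kb upstream with a signal value of 1.96, and on the other side the nearest lay 113.2 kb away with 5.91. Of all H3K4me3 peaks, 9.89% had no H3K27ac peak within 30 kb of their centre. Among the 2445 of the same decile as that of CYP1B1 (signal values 4.24 to 6.92) 45.0% overlapped no H3K27ac peak and 20.9% had none within 30 kb. A missing peak means that none passed the authors' threshold, and a weaker signal below it cannot be told from none.

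TIPARP, which feeds back on the receptor, had strong H3K4me3 and H3K27ac a short way downstream of the start used here. The H3K4me3 peak, chr3:156391363-156394769, was 3407 bp wide with a signal value of 50.1, higher than 85.0% of the list, and began 339 bp after the start at 156391024. The H3K27ac peak, chr3:156391579-156394844, was 3266 bp wide with a signal value of 19.3, higher than 87.3% of its list, and covered 93.7% of the H3K4me3 bases. Among the 2445 H3K4me3 peaks of the same decile (signal values 46.0 to 54.9), the strongest overlapping H3K27ac peak had a median of 24.7 (17.1 to 34.3). In 67.5% of them it was higher than at TIPARP. RefSeq lists 3 starts of TIPARP, the others 336 and 2074 bp downstream of the first. Since they were not placed on the build of the peaks, which start the peaks cover is not known. No H3K4me1 peak lay in the 3.24 kb around the H3K4me3 summit, and in the same decile 2.41% of summits lay in an H3K4me1 peak. Just upstream of the start used here, a 297-bp H3K4me1 peak, chr3:156390701-156390997, ended 27 bp before it. That peak had a signal value of 2.43 and a −log10 q-value of 3.20. H3K4me1 covered 13.0% of the H3K4me3 bases, against a median of 33.6% (21.3 to 46.4) among peaks of that decile.

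Beyond the start, the TIPARP window held 1 further H3K27ac peak, chr3:156397933-156399668, with its summit 7.55 kb after the start and a signal value of 5.82. It was enhancer-like by its marks and exceeded 83.4% of such peaks. Another H3K27ac peak, of 3.21, lay 1.21 kb past the downstream edge of the window and is not counted here. H3K4me1 was spread over 14 peaks with widths from 297 to 1402 bp (median 443 bp) and signal values from 2.22 to 3.80 (median 3.08, against 3.42 for the whole list), of which 9 overlapped neither other mark. The AHR window had 8 H3K4me1 peaks, with a median width of 829 bp and signal values from 2.21 to 6.03.

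**Figure D2:**
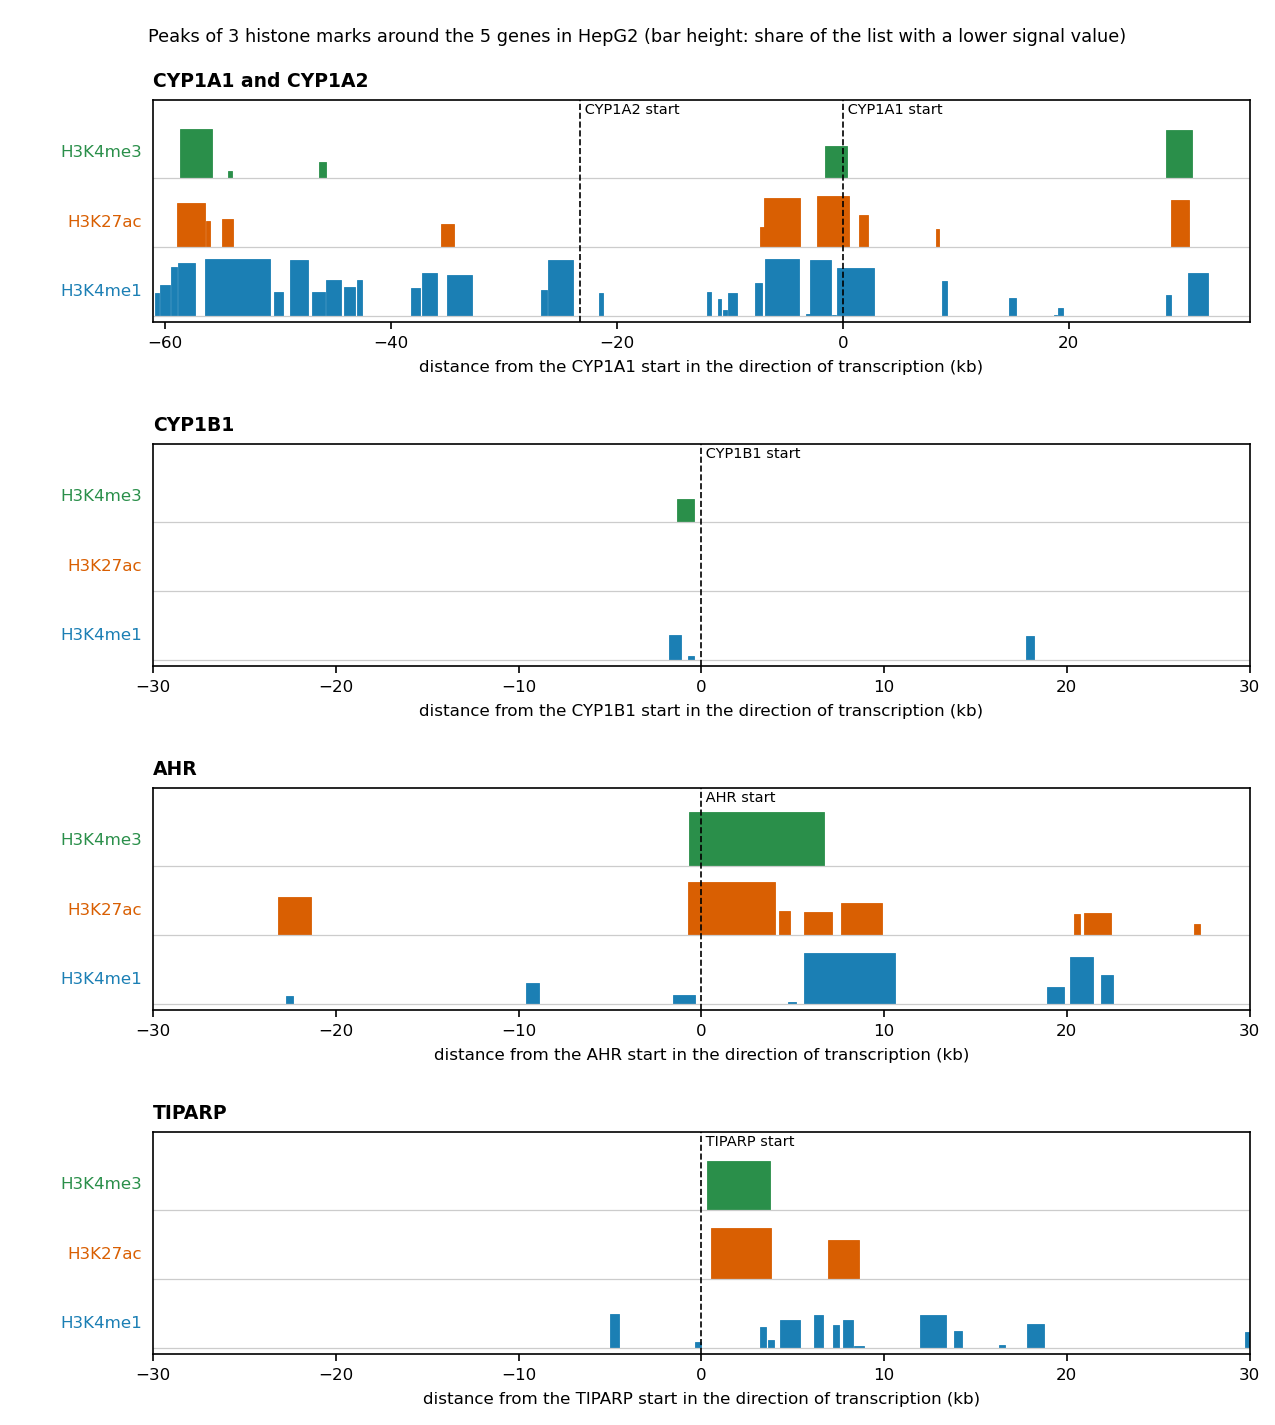
All peaks of the 4 windows by distance from the start in kb, in the direction of transcription, with 1 row per mark; bar height is the share of the mark's list that has a lower signal value. The CYP1B1 row for H3K27ac is empty, and the CYP1A window has strong H3K4me3 at both outer edges beside the CYP1A1 peak.

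Mark combinations were counted over all windows. Of the 21 H3K27ac peaks, 9 overlapped H3K4me3 (42.9%, against 31.7% of the whole list), 10 were enhancer-like (47.6%, against 59.8%) and 2 overlapped neither methylation (9.52%, against 8.52%). Of the 9, 5 lay in the CYP1A window, and among those only chr15:75017305-75020124 held a P450 start. The rest of those lay towards the outer edges of that window and were not assigned to a gene. Of the 58 H3K4me1 peaks, 33 overlapped neither other mark (56.9%, against 61.6%) and 9 overlapped H3K27ac without H3K4me3 (15.5%, against 19.5%). Of the 8 H3K4me3 peaks, 6 overlapped both other marks (75%, against 74.1%) and 2 overlapped H3K4me1 only (25%, against 18.7%). The 2 were those beside CYP1B1 and beyond CYP1A2. Summits of 6 of the 8 lay in an H3K27ac peak (76.4% over the list) and of 3 in an H3K4me1 peak (40.6%). Peaks of 1 window share their surroundings, and none of these differences from the lists was tested.

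Strength within each list varied widely among the members. H3K27ac signal values ran from 1.51, which 0.436% of the list undercut, to 24.9, with a median of 3.07 against 3.15 for the whole list. H3K4me1 values ran from 2.02 to 11.2 with a median of 3.19, against 3.42. H3K4me3 values ran from 2.23 to 59.3 with a median of 33.2, against 13.3. The unassigned peaks at the outer edges of the CYP1A window, with 48.2 and 49.6, count towards this median and lie above it. It therefore does not describe the starts of the 5 genes alone. The lowest H3K27ac value was that of a 366-bp peak inside CYP1A1, chr15:75016728-75017093, whose −log10 q-value was 1.57.

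**Figure D3:**
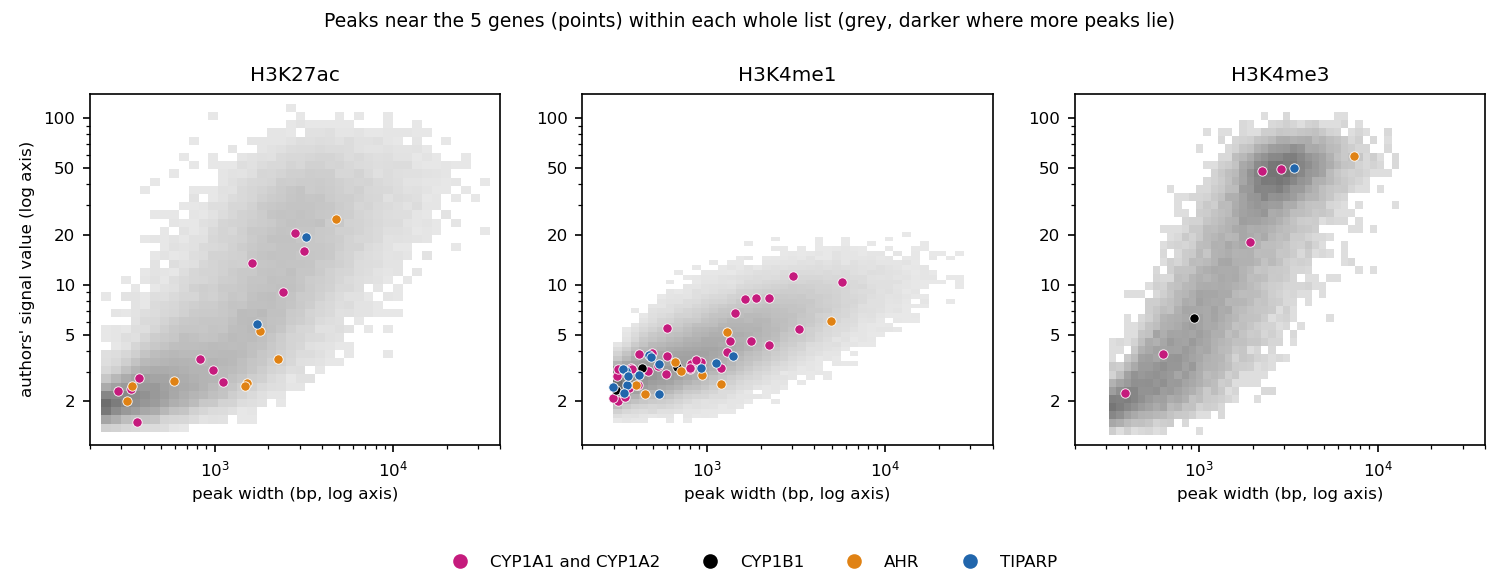
Width in bp (log axis) and signal value (log axis) of each peak near the 5 genes, coloured by window, within the whole list of each mark in grey. The AHR H3K4me3 peak, at 7406 bp and 59.3, lies at the wide end of the strong peaks, and the CYP1B1 H3K4me3 peak, at 936 bp and 6.34, among the weaker ones.

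Peak density around the starts was set beside that around all 24446 H3K4me3 peaks, counted within 30 kb of each start or centre. H3K27ac peaks numbered 8 at AHR, 7 at CYP1A1, 6 at CYP1A2, 2 at TIPARP and 0 at CYP1B1, around a median of 4 (interquartile range 2 to 7) for all H3K4me3 peaks. The count at CYP1A2 includes peaks also counted at CYP1A1, since the windows of both starts overlap. H3K4me1 peaks numbered 23 at CYP1A2, 18 at CYP1A1, 14 at TIPARP, 8 at AHR and 3 at CYP1B1, around a median of 11 (6 to 16). The CYP1A2 start, with no mark on it, thus had more H3K4me1 peaks around it than 97.1% of H3K4me3 peaks. By covered length it was less extreme, with 27.7 kb against a median of 11.8 kb, more than around 88.7% of H3K4me3 peaks. For H3K4me1 too, peaks at and upstream of the CYP1A1 start are counted at both starts, so these values do not describe CYP1A2 alone. H3K4me3 peaks numbered 2 at CYP1A1 and at CYP1A2 and 1 at each of the others, around a median of 2 (1 to 3). For this mark the background includes the peak at its own centre and cannot be 0, while a start need not lie in a peak. Both counts are therefore not alike. In covered length AHR led for H3K27ac, with 13.1 kb against a median of 5.42 kb, and for H3K4me3, with 7.41 kb against 3.78 kb.

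**Figure D4:**
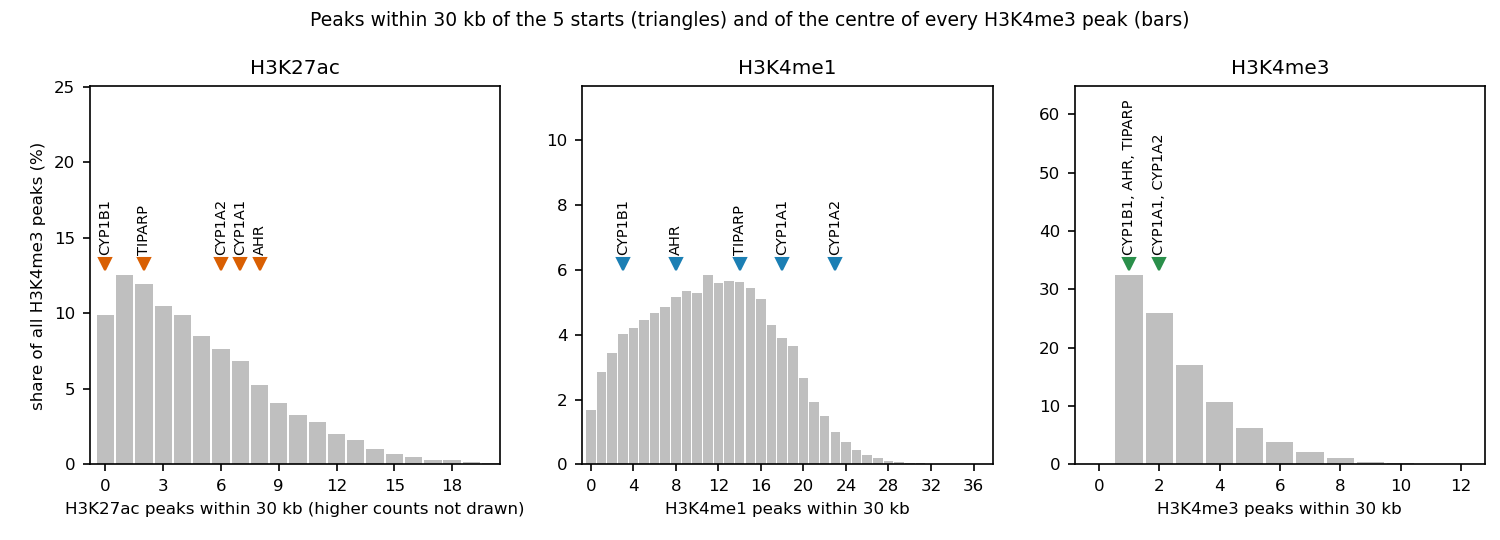
Number of peaks of each mark within 30 kb of the 5 starts (triangles) over the distribution around the centres of all 24446 H3K4me3 peaks (bars, in percent; the H3K27ac axis is drawn up to 20). CYP1B1 lies at 0 for H3K27ac and 3 for H3K4me1, and CYP1A2 at 23 for H3K4me1, near the upper end.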

How the data were processed

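The values are 3 deposited peak lists, 1 per mark, named as pooled over replicates. MACS2 and hg19 are named in the submitters' processing notes, while the aligner, the MACS2 version, the threshold and the use of the control are not given in the sources used here. The authors' signal value, the −log10 q-value given per peak (a −log10 p-value stands beside it and was not used) and a peak score (not used) were read as deposited, per the narrowPeak column order.

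Chromosome Y was left out. Marks were shared where peaks had at least 1 bp in common. Peaks were named by position: all 5 genes, the peaks at or nearest to each start, and the strongest and widest per window. Ranks are shares of the same list. Like strength means the same decile of H3K4me3 signal values. The genes, their windows and all lists were chosen with earlier results of these data known. No test was made, since each mark has 1 pooled list. Planned readings of other AHR pathway genes and of cell type markers were not made, as an annotation of the build was not used. Gene order and promoter sequences came from RefSeq (GRCh38.p14). Functions were tested on simulated peaks. Python 3.11.15, numpy 2.4.6 and matplotlib 3.10.9 were used. Alternatives were stricter lists, joined peaks, other windows and a larger overlap.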

Additional observations from a re-analysis of the deposited data

How the results depend on the processing

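No paired analysis was possible because each mark has 1 pooled list, and no replicate could be left out for the same reason. Over 8 counts, 46 alternative values were computed, of which 21 stayed within 1.5 times the reported count. The numbers of starts inside an H3K4me3 peak and inside an H3K27ac peak were 2 under each alternative run on them, and sharing 50% of the shorter peak left both H3K27ac classes as reported.

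At −log10 q-values of 5 or more, 21 H3K4me1 peaks overlapped neither other mark. The stronger 50% of each list held 10 H3K27ac, 23 H3K4me1 and 5 H3K4me3 peaks, with 5 that overlapped H3K4me3, 3 enhancer-like and 16 H3K4me1-only peaks; the CYP1B1 window then held 0 peaks of any mark. Equal numbers per list (24446) left 8 H3K27ac and 7 H3K4me1 peaks, with 5 that overlapped H3K4me3, 1 enhancer-like and 2 H3K4me1-only. Joining peaks within 1000 bp gave 13 H3K27ac and 25 H3K4me1 peaks, with 5 enhancer-like and 13 H3K4me1-only. Windows of 10 kb held 13 H3K27ac, 33 H3K4me1 and 4 H3K4me3 peaks, with 5 that overlapped H3K4me3 and 17 H3K4me1-only. Windows of 100 kb held 40 H3K27ac and 109 H3K4me1 peaks, with 28 enhancer-like and 63 H3K4me1-only. Stricter or joined lists and other windows changed which peaks were counted, and a peak could also change class when an overlapping peak dropped out. How much each contributed was not tested. Enhancer-like H3K27ac peaks outnumbered those with H3K4me3 in the full lists (10 to 9), with 50% of the shorter peak shared (10 to 9) and in windows of 10 kb (7 to 5) and 100 kb (28 to 10), but not in the stronger 50%, with equal numbers, at a −log10 q-value of 5 or more (8 to 9) or after joining (5 to 6). With unknown depth, a missing peak sets no limit on the mark.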
